A study of Mus musculus with 8 samples.

Results

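The genes of mouse chromosome 14 were followed in order along the chromosome in Ba/F3 cells. Members were the genes that GRCm38 coordinates place on chromosome 14 and whose level, averaged over the 8 libraries, was at least 1 CPM (read counts scaled to library size with TMM factors). Of the 2530 chromosome 14 genes in the table, 530 met this, among 14010 genes of the whole genome that did. A further 890 had counts but a lower mean, and 1110 had no count in any library. The members comprised 378 protein-coding genes, 113 pseudogenes and 39 other non-coding genes, and each of them had counts in every library. The choice of this chromosome rested on values of these same libraries, so the levels along it are given as a description, with no test.

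Ba/F3 is an established mouse line labelled as immortalized pro-B cells on a C3H strain background, and all 8 libraries came from it. The control group was made of 3 libraries of parental cells, parental 1 to 3, in which U2AF35 is wild type. The other group was 5 libraries of cells transformed with U2AF35(S34F), numbered transformed 4 to 8; U2AF35, the product of U2af1, helps the spliceosome to recognise the end of an intron. Nothing in the labels tells separate cultures or clones within a group, so a p-value here reflects only how far these samples spread, which may be a technical spread.

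A chromosome that is gained, in whole or in part, usually carries more transcript from many neighbouring genes at once, and RNA profiles of cell lines are often read along the chromosome for that reason. A run of neighbouring genes can also change together through shared regulation or through near-identical copies that share reads. DNA was not analysed here, so copy number and transcription cannot be told apart. Mouse chromosome 14 carries genes of many kinds, among them Il3ra, the alpha chain of the interleukin-3 receptor on which Ba/F3 growth depends, the retinoblastoma gene Rb1, a granzyme and mast cell protease cluster and the T cell receptor delta constant gene Trdc.

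Library totals ran from 36122062 to 50305573 counts. Chromosome 14 took 2.54% to 2.69% of the counts in the parental libraries, 3.26% in transformed 4 and 2.68% to 3.03% in the other transformed libraries. Of 14 pro-B and B lineage markers, 3 had a mean of at least 1 CPM (Cd79a, Cd79b and Ptprc), and Rag1 and Il7r had no count in any library. The summed B lineage level was 438 to 522 CPM in the parental and 376 to 540 CPM in the transformed libraries, lowest in transformed 4. Ptprc made up most of that sum, at 299 CPM in transformed 4 and 314 to 485 CPM in transformed 5 to 8. Cd79a and Cd79b went the other way. They were 55.2 and 21.9 CPM in transformed 4, against 43.5 to 49.7 CPM and 10.9 to 13.1 CPM in transformed 5 to 8. Transformed 4 also had the lowest sum of 4 macrophage markers, at 56.3 CPM against 243 to 343 CPM in the parental libraries. Of the 4, 2 had a mean of at least 1 CPM, Adgre1 and Cd68, with Mrc1 at or near 0. Adgre1 alone set transformed 4 apart, at 48.2 CPM against 177 to 391 CPM in transformed 5 to 8. Cd68 was 7.96 CPM in transformed 4 and 7.33 to 8.28 CPM in transformed 5 to 8. Transformed 4 had the highest sum of 5 mast cell markers, at 213 CPM against 53.3 to 133 CPM in the parental libraries. Cpa3 and Cma1, the latter a member itself, made up nearly all of that sum, and Kit and Fcer1a had no count. The summed levels over the 8 libraries stayed at or below 1.07 CPM for 6 T cell markers and 0.422 CPM for 5 fibroblast markers. The part of these marker differences in the results below was not tested. By a lane tag in the labels, lane 6 held transformed 5, transformed 8, parental 1 and parental 3, and lane 7 the other 4 libraries.

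The promoters of 4 distal genes are shown because 2 of them flank the place where parental 1 changed level and 2 are neighbours called higher in transformed cells. Dis3 and Pibf1 are the former pair, and Commd6 and Uchl3 the latter. Dis3 encodes a catalytic subunit of the RNA exosome, and Uchl3 a ubiquitin hydrolase. Each line gives the 250 bases upstream of the RefSeq start in GRCm38.p6, 5′ to 3′ on the gene's strand. They cover chr14:99099771-99100020 on the minus strand for Dis3, chr14:99099174-99099423 on the plus strand for Pibf1, chr14:101640472-101640721 on the minus strand for Commd6 and chr14:101653717-101653966 on the plus strand for Uchl3. Capitals mark matches on either strand to 5 motifs that do not overlap here, ETS (CCGGAAG), CRE (TGACGTCA), CCAAT box (CCAAT), TATA box (TATAAA) and E box (CACGTG).
Dis3: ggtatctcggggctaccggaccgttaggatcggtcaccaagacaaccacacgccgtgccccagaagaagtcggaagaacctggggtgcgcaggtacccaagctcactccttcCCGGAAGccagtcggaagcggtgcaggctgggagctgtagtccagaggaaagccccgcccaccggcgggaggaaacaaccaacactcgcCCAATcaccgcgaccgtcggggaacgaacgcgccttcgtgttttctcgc
Pibf1: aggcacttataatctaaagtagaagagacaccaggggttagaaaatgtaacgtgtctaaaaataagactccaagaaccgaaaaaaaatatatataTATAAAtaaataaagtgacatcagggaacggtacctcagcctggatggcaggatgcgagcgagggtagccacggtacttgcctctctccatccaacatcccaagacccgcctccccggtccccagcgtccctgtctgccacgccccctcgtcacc
Commd6: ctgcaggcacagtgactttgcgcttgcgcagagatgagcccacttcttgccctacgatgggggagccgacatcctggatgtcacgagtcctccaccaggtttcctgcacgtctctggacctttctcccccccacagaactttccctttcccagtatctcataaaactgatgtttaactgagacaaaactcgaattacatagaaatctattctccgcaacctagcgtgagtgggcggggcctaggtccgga
Uchl3: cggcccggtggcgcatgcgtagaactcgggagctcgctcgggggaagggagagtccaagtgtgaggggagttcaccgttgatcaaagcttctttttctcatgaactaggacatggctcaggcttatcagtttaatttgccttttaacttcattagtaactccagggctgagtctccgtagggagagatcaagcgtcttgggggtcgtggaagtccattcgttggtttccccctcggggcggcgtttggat
The Dis3 window held an ETS and a CCAAT match, the Pibf1 window a TATA match, and the Commd6 and Uchl3 windows none of the 5. These matches describe the letters only. Among 372 promoters of chromosome 14 members, from 296 of the 530 members found in the RefSeq table, 15.6% held the ETS letters, against 14.8% of 11109 promoters of genes with a mean of at least 1 CPM. The CCAAT letters were in 31.5% against 36.0%, TATA in 8.33% against 6.18%, the E box in 7.53% against 8.26% and CRE in 1.88% against 2.76%. Over all 32851 promoters of the table the shares were 6.91% for ETS, 33.8% for CCAAT, 12.4% for TATA, 6.02% for the E box and 1.55% for CRE.

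Chromosome 14 as a whole stood higher in transformed 4 than in any other library. Its levels are given as a log2 ratio, the log2 CPM of a library (prior count 2) minus the mean of the 3 parental libraries; a parental library is set against the mean of the other 2. The median over the 530 members was 0.30 in transformed 4, a 1.23-fold level. It was 0.04, 0.06, 0.05 and 0.11 in transformed 5, 6, 7 and 8, and -0.01, -0.04 and 0.04 in parental 1, 2 and 3. In transformed 4, 437 of the 530 (82.5%) lay above the parental mean, beside 48.7% of all genes. The middle range from the first to the last quartile of the members was 0.10 to 0.49. Among the 378 protein-coding members alone the transformed 4 median was 0.37, with 341 above the parental mean.

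Over the other autosomes and X, 19 chromosomes in number, the transformed 4 median ran from -0.31 on chromosome 19 to 0.19 on chromosome 15. Genes off chromosome 14 had a transformed 4 median of -0.02. In each of transformed 5 to 8 the chromosome 14 median lay inside the range of the medians of the other chromosomes. Of all genes, 33.3% lay above all 3 parental libraries in transformed 4, and of the members 388 did (73.2%). The corresponding member counts were 229 in transformed 5, 232 in transformed 6, 237 in transformed 7 and 269 in transformed 8, beside 36.8%, 36.5%, 36.0% and 39.2% of all genes. Below all 3 parental libraries lay 59 members in transformed 4 (11.1%), beside 35.8% of all genes, and 175, 178, 209 and 154 members in transformed 5 to 8, beside 37.0%, 36.2%, 47.0% and 36.4%. Nothing is read from these counts, since the chromosome was chosen on them.

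**Figure D1:**
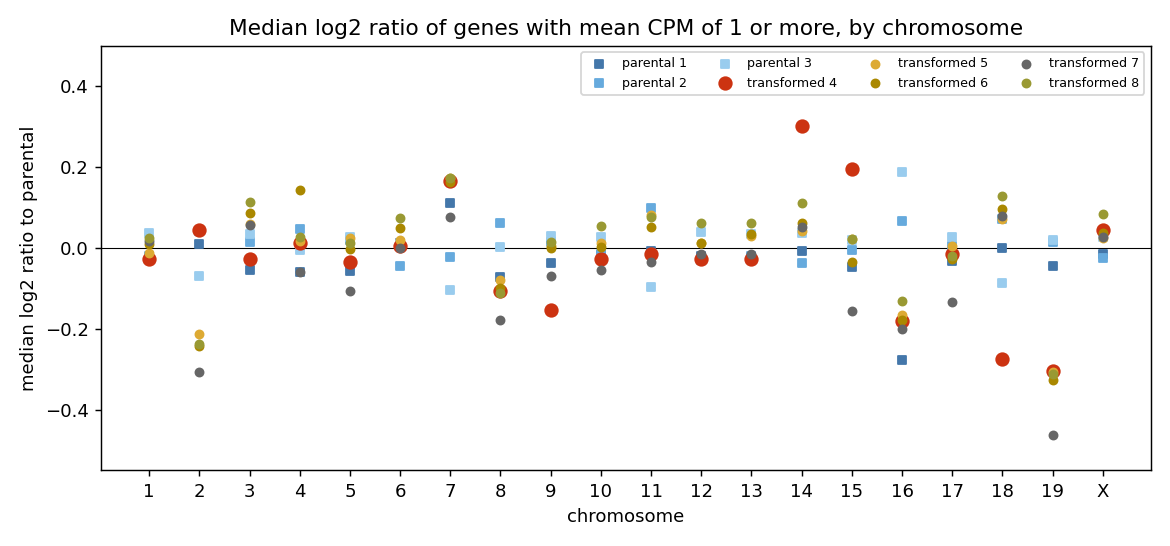
Median log2 ratio to the parental mean (vertical axis) of the genes with a mean of at least 1 CPM on each chromosome (horizontal axis), 1 symbol per library; squares are parental libraries, each set against the other 2, and circles transformed libraries. Transformed 4 sits at 0.30 on chromosome 14, above its value on every other chromosome drawn, while the 4 other transformed libraries sit between 0.04 and 0.11.

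Set directly against the 4 other transformed libraries, transformed 4 lay above all 4 in 266 members (50.2%), where 30.7% of all genes did, and below all 4 in 64 members (12.1%), where 27.7% did. The median difference between transformed 4 and the mean of the other 4 was 0.22 over the members.

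Along position the members fell into 2 stretches, a long proximal one with a raised median in transformed 4 and a distal one with raised medians in all 5 transformed libraries. Members started between 3051653 (Esd-ps) and 124398691 (Gm49070), a span of 121 Mb. The single split that best described transformed 4 minus the mean of the other 4, at the least summed absolute deviation with at least 20 genes a side, fell between Tsc22d1 (start 76414961) and Lacc1 (start 77024200). The difference had a median of 0.25 over the 447 members up to Tsc22d1 and -0.01 over the 83 members from Lacc1 on. The same place was found with protein-coding members alone, with members of at least 10 CPM and with members whose sequence is little shared. No significance is attached to a split.

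**Figure D2:**
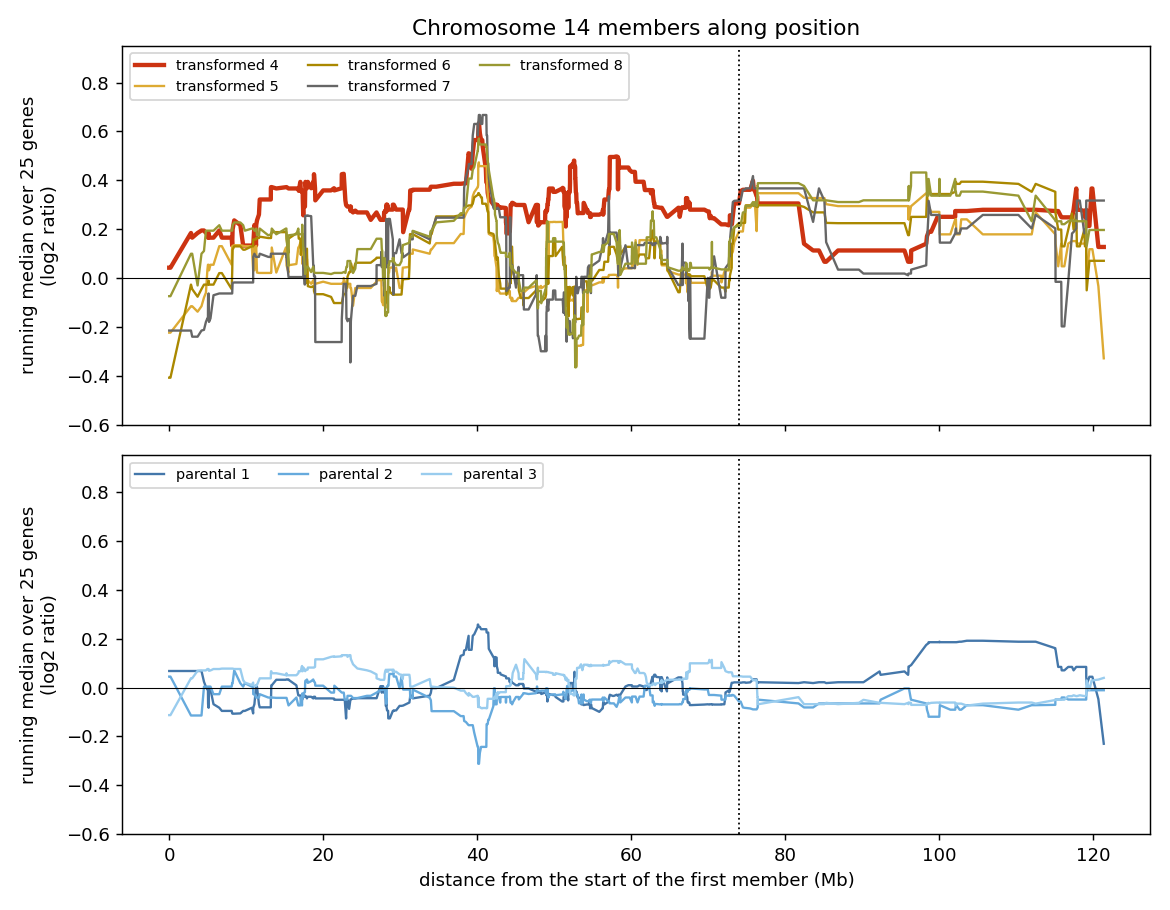
Running median over 25 neighbouring members of the log2 ratio (vertical axes) against distance from the start of the first member in Mb (horizontal axis), with transformed libraries above and parental libraries below, each parental library against the other 2; the dotted line marks the start of Lacc1. Left of the line transformed 4 runs above the 4 other transformed libraries over most of the stretch, and just right of it all 5 run above 0.

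The 4 other transformed libraries were low before about the same place and high after it. Split alone, transformed 5, 6 and 8 each divided between Gm23823 (start 77540642) and Dnajc15 (start 77820681), from a median of 0.01 to 0.27, 0.02 to 0.27 and 0.07 to 0.32. Transformed 7 divided between Esd (start 74732297) and Lrch1 (start 74754675), from 0.03 to 0.24. Transformed 4 split alone gave no boundary there: its best split lay near the proximal end, between Gm8483 (start 14447661) and Slc4a7 (start 14702279), from 0.17 to 0.31.

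Protein-coding members showed the same contrast. Over the 331 up to Tsc22d1, the transformed 4 median was 0.36 with 301 above the parental mean, while transformed 5 to 8 had medians of 0.00, 0.03, 0.05 and 0.05. Over the 47 from Lacc1 on, the median was 0.43 in transformed 4, 0.35 in transformed 5, 0.36 in transformed 6, 0.49 in transformed 7 and 0.42 in transformed 8. Of those 47, 40, 40, 41, 38 and 42 lay above the parental mean in transformed 4, 5, 6, 7 and 8. Of all genes, 48.7%, 50.4%, 50.5%, 44.4% and 52.1% did in the same libraries. The excess of transformed 4 over the other 4 was 0.29 before and 0.02 after.

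**Figure D3:**
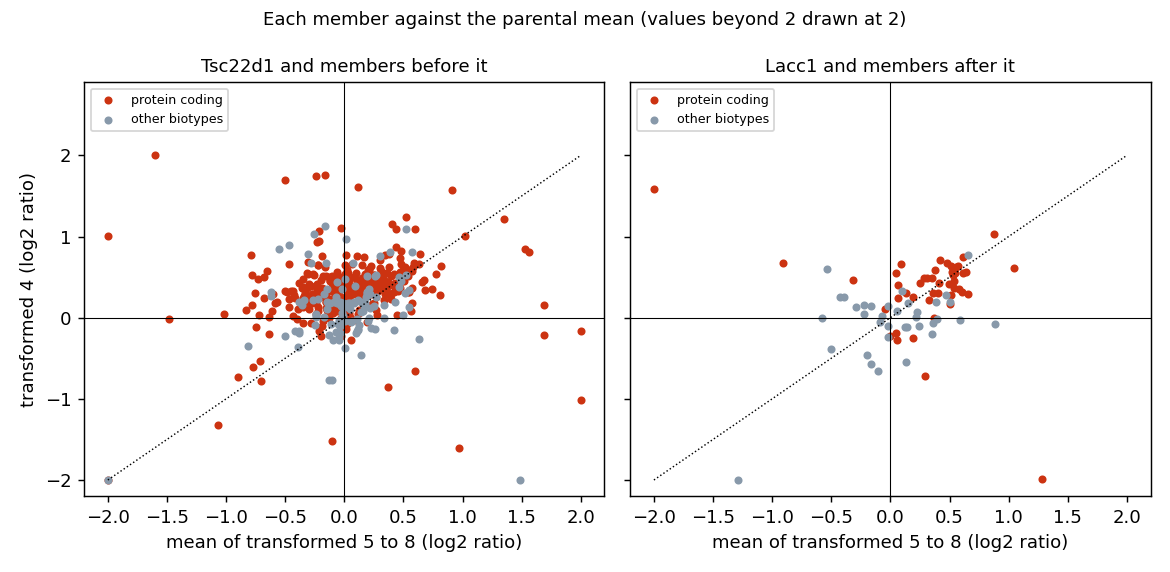
Log2 ratio of each member in transformed 4 (vertical axis) against the mean of transformed 5 to 8 (horizontal axis), for the 447 members up to Tsc22d1 and the 83 from Lacc1 on; red points are protein-coding members, grey points other biotypes, and the dotted line marks equal values. Before the boundary the cloud is centred near 0 horizontally and above 0 vertically, and after it the protein-coding points lie close to the dotted line above 0 on both axes.

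The distal stretch also differed among the parental libraries. Over its 47 protein-coding members the median was 0.18 in parental 1, -0.11 in parental 2 and -0.06 in parental 3, so parental 1 lay between the other parental libraries and the transformed ones. Its own best split fell between Dis3 (start 99075206) and Pibf1 (start 99099424), from -0.02 over 479 members to 0.16 over 51. Parental 3 had a smaller split in the opposite direction, from 0.05 to -0.06 between Vwa8 and Gm6997. Since each parental library is set against the other 2, a high value in 1 lowers the others.

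In 10 Mb bins, the transformed 4 median over all members ran from 0.19 to 0.34 in each of the 8 bins up to 80 Mb. It was -0.11 over 7 members between 80 and 90 Mb and -0.05 over 12 members between 90 and 100 Mb, and 0.25 to 0.28 in the last 3 bins. The 2 protein-coding members between 80 and 90 Mb had a transformed 4 median of 0.52, and the 5 between 90 and 100 Mb one of -0.01, with -0.32 for the median difference from the other 4 transformed libraries. Set against the other 4 transformed libraries, its median difference was 0.16 to 0.32 in 7 of those 8 bins and 0.01 between 10 and 20 Mb, where the other 4 had medians of 0.09 to 0.20. Bins with fewer than 20 members are the first, those 2 and the last 2, so their medians rest on few genes. Between 100 and 110 Mb, with 20 members, the medians were 0.26, 0.26, 0.37, 0.38 and 0.41 in transformed 4 to 8. They were 0.23 in parental 1, -0.13 in parental 2 and -0.07 in parental 3. Each parental library is set against the other 2 only, so its value is not on the same reference as the transformed ones.

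**Figure D4:**
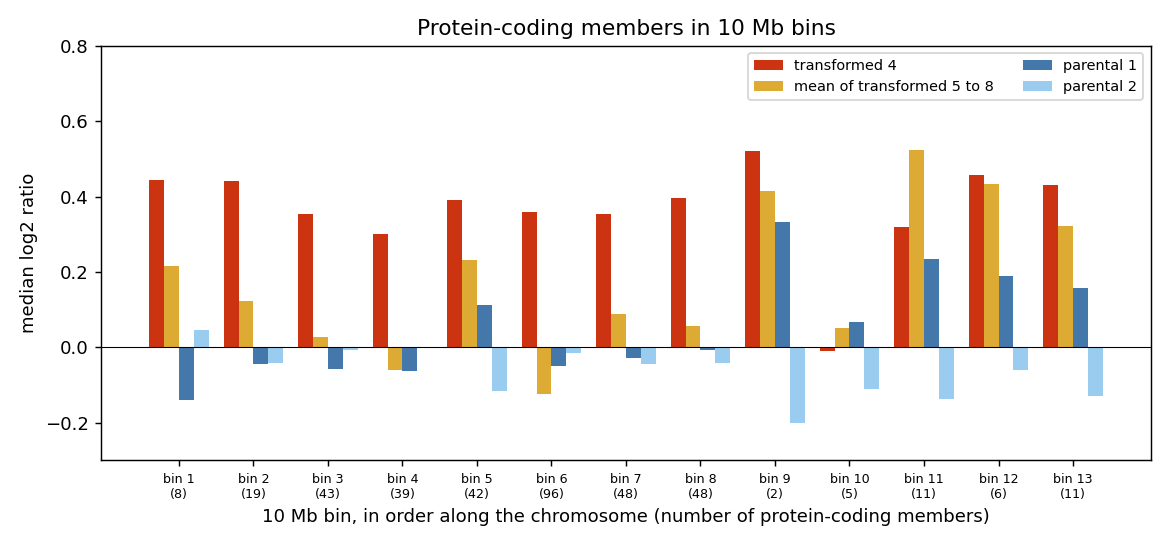
Median log2 ratio of protein-coding members (vertical axis) in successive 10 Mb bins of chromosome 14 (horizontal axis, member numbers in brackets) for transformed 4, the mean of transformed 5 to 8, parental 1 and parental 2. Red bars stand near 0.30 to 0.44 in bins 1 to 8 while the yellow bars lie between -0.12 and 0.23, the red bars are at 0.52 in bin 9 (2 members) and -0.01 in bin 10 (5 members), and from bin 11 on both are above 0.30.

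A cluster of look-alike genes between 40 and 45 Mb, within the proximal stretch, had raised medians in all 5 transformed libraries. It holds predicted genes such as Gm5798, Gm8011 and Gm8126, named here after their values were seen, and 26 of its 28 members shared at least 10% of their 50-base sequences with another gene. Its medians were 0.58, 0.42, 0.34, 0.65 and 0.55 in transformed 4 to 8. Set against the other 2 parental libraries, they were 0.25 in parental 1 and -0.28 in parental 2. The bin between 100 and 110 Mb likewise had medians above 0 in all 5 transformed libraries and parental 1 and below 0 in parental 2. How multimapping reads were counted is not stated, so the level of any single gene of the cluster is uncertain.

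The size of the shift in transformed 4 varied with the kind of gene, a difference that was not tested. Pseudogenes had a transformed 4 median of 0.13 over 84 members before the boundary and -0.02 over 29 after it, against 0.36 and 0.43 for protein-coding members. Members with under 10% shared 50-base sequences had 0.34 over 315 and 0.42 over 53, and those with more had 0.19 over 132 and 0.01 over 30. By mean level, the transformed 4 median before the boundary was 0.25 in the lowest class of 153 members, 0.32 in the middle class of 146 and 0.35 in the highest class of 148. By GC content it was 0.36 in the low class, 0.22 in the middle class and 0.30 in the high class. The transformed 4 median was above 0 in each of these classes before the boundary.

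Between the groups, 14 distal and 8 proximal members were called higher in transformed cells and 4 proximal members lower; whether the share called differs between the stretches was not tested. With edgeR's quasi-likelihood test over 17733 genes and Benjamini-Hochberg adjustment, 22 of the 530 members were called higher at an adjusted p under 0.05 (4.15%), where 0.908% of all genes were, and 4 were called lower (0.755%), where 2.10% were. All 530 members passed the low-count filter. Of the 22, 8 lay among the 447 members up to Tsc22d1 and 14 among the 83 from Lacc1 on. The 4 lower ones, Ncoa4, Ear6, Cebpe and Lats2, all lay up to Tsc22d1. Ear6 met the level rule only through the parental libraries. The median log2 fold change was 0.10 before the boundary, 0.28 after it and 0.02 over all genes tested. In each of the 26 the 5 transformed libraries lay wholly beyond the 3 parental ones; over all members all 5 lay above all 3 in 107 (20.2%), beside 8.02% of all genes, and below in 13 (2.45%), beside 11.0%. With lane as a covariate 1 was called higher (Uchl3) and 2 lower (Ncoa4 and Ear6), so that the other 21 higher calls and those of Cebpe and Lats2 were lost, at edgeR adjusted p of 0.0576 to 0.0965. The shares of all genes called moved as well, to 0.0846% higher and 0.445% lower with lane as a covariate and 9.6% and 10.8% in lane 6 alone. The counts also turned on single libraries, as did the shares of all genes, given in brackets. Without transformed 4 they were 62 higher (6.25%) and 37 lower (9.26%), and without transformed 7 they were 51 (2.87%) and 7 (4.76%). Without transformed 5 they were 3 (0.0907%) and 2 (0.397%). Without transformed 6 they were 1 (0.051%) and 2 (0.329%), and without transformed 8 they were 1 (0.0735%) and 2 (0.351%). Without parental 1, 2 or 3 edgeR called 0 higher (0.0609%, 0.0166% and 0.0276%), with 107, 92 and 91 at an unadjusted p under 0.05, and 1, 2 and 1 lower (0.354%, 0.183% and 0.116%). In the 4 lane 6 libraries they were 71 and 47, and in lane 7, with 1 parental library, edgeR called 0 and 0, with 22 and 3 at an unadjusted p under 0.05.

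The clearest distal member was Uchl3, the ubiquitin hydrolase whose promoter is printed above (ENSMUSG00000022111, chr14:101653967-101696125). Its level was 62.4, 61.9 and 58.6 CPM in parental 1 to 3, 90.4 CPM in transformed 4 and 101, 89.1, 88.9 and 102 CPM in transformed 5 to 8. The groups did not overlap, and transformed 4 lay within the range of the other transformed libraries. The log2 fold change was 0.64 (SE 0.08, edgeR adjusted p = 0.0105).

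Dis3 (ENSMUSG00000033166, chr14:99075206-99099770) had the largest change among the distal members called. It measured 81.6, 79.1 and 76.9 CPM in parental 1 to 3, 121 CPM in transformed 4 and 154, 138, 217 and 155 CPM in transformed 5 to 8. Transformed 4 was the lowest and transformed 7 the highest of the transformed libraries, and all lay above the parental ones. The log2 fold change was 1.002 (SE 0.18, edgeR adjusted p = 0.0312, and 0.0713 with lane as a covariate). Dis3 and its neighbour Pibf1 lie on opposite strands and overlap at their 5′ ends. Whether counting used strand is not stated, so reads in the overlap cannot be assigned with certainty. Pibf1, chosen after its values were seen, measured 15.1, 12.8 and 13.5 CPM in parental 1 to 3, 13.7 CPM in transformed 4 and 17.6, 17.6, 17.2 and 19.1 CPM in transformed 5 to 8 (edgeR adjusted p = 0.192).

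Next to Dis3 on its other side, Bora, an activator of Aurora A in mitosis, measured 120, 116 and 132 CPM in parental 1 to 3, 105 CPM in transformed 4 and 150, 130, 88.6 and 129 CPM in transformed 5 to 8. Its groups overlapped (log2 fold change -0.02, SE 0.15, edgeR adjusted p = 0.968). Mzt1, between Rpl36a-ps1 and Bora and also named after its values were seen, had a log2 fold change of 0.00 (SE 0.11, edgeR adjusted p = 0.994).

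Other distal members called higher have varied roles. Vwa8 measured 38.8, 36.8 and 39.0 CPM in the parental libraries and 59.6, 54.0, 52.5, 66.2 and 56.1 CPM in transformed 4 to 8 (log2 fold change 0.61, SE 0.11, edgeR adjusted p = 0.029). Epsti1, known as an interferon-responsive gene, measured 14.6, 12.3 and 16.1 CPM and then 29.0, 21.9, 27.5, 30.6 and 25.4 CPM (log2 fold change 0.92 with SE 0.15, edgeR adjusted p = 0.0236). Dnajc3, an inhibitor of eIF2alpha kinases that acts in the endoplasmic reticulum stress response, measured 93.5, 78.5 and 76.2 CPM and then 121, 114, 115, 152 and 127 CPM (log2 fold change 0.62 with SE 0.13, edgeR adjusted p = 0.0433). In all of these genes the transformed and parental values did not overlap. The 9 remaining distal calls, named after their values were seen, were Dnajc15, Naa16, Wbp4, Tdrd3, Commd6, Rnf219, Abcc4, Ipo5 and Pcca, with fold changes between 1.40 and 1.49.

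Proximal members called higher were fewer and mostly as high in transformed 5 to 8 as in transformed 4. Arf4, a small GTPase of Golgi traffic, measured 71.8, 75.9 and 81.0 CPM in parental 1 to 3, 120 CPM in transformed 4 and 104, 113, 133 and 123 CPM in transformed 5 to 8 (log2 fold change 0.65, SE 0.10, edgeR adjusted p = 0.0244). Gnl3, nucleostemin, a nucleolar GTPase of proliferating cells, measured 127, 157 and 145 CPM, then 220 CPM and 227, 206, 185 and 199 CPM (log2 fold change 0.55 with SE 0.10, edgeR adjusted p = 0.0301). In Extl3, a heparan sulphate glycosyltransferase, transformed 4 was the lowest of the transformed libraries, at 33.5 CPM against 46.3, 40.9, 38.2 and 43.6 CPM, with 29.9, 27.6 and 22.1 CPM in the parental libraries (log2 fold change 0.62, SE 0.14, edgeR adjusted p = 0.0489). Spryd7 was called as well (log2 fold change 0.59, SE 0.11, edgeR adjusted p = 0.0331). The other 4, Gm6526, Phf11d, Slc39a14 and Nufip1, are named after their values were seen.

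Other proximal genes were highest in transformed 4. Top2b, a DNA topoisomerase, measured 252, 243 and 249 CPM in parental 1 to 3, 364 CPM in transformed 4 and 252, 265, 266 and 280 CPM in transformed 5 to 8. Rps24, a protein of the small ribosomal subunit, measured 1010, 976 and 1083 CPM, then 1486 CPM in transformed 4 and 1006, 977, 1060 and 1073 CPM. Psme1, a subunit of the PA28 proteasome activator, measured 140, 131 and 133 CPM, then 212 CPM and 146, 134, 116 and 147 CPM. In all 3 genes transformed 4 lay above the 7 other libraries, which overlapped one another between groups. None of the 3 passed edgeR's test between groups, with adjusted p of 0.355 for Top2b, 0.599 for Rps24 and 0.600 for Psme1.

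**Figure D5:**
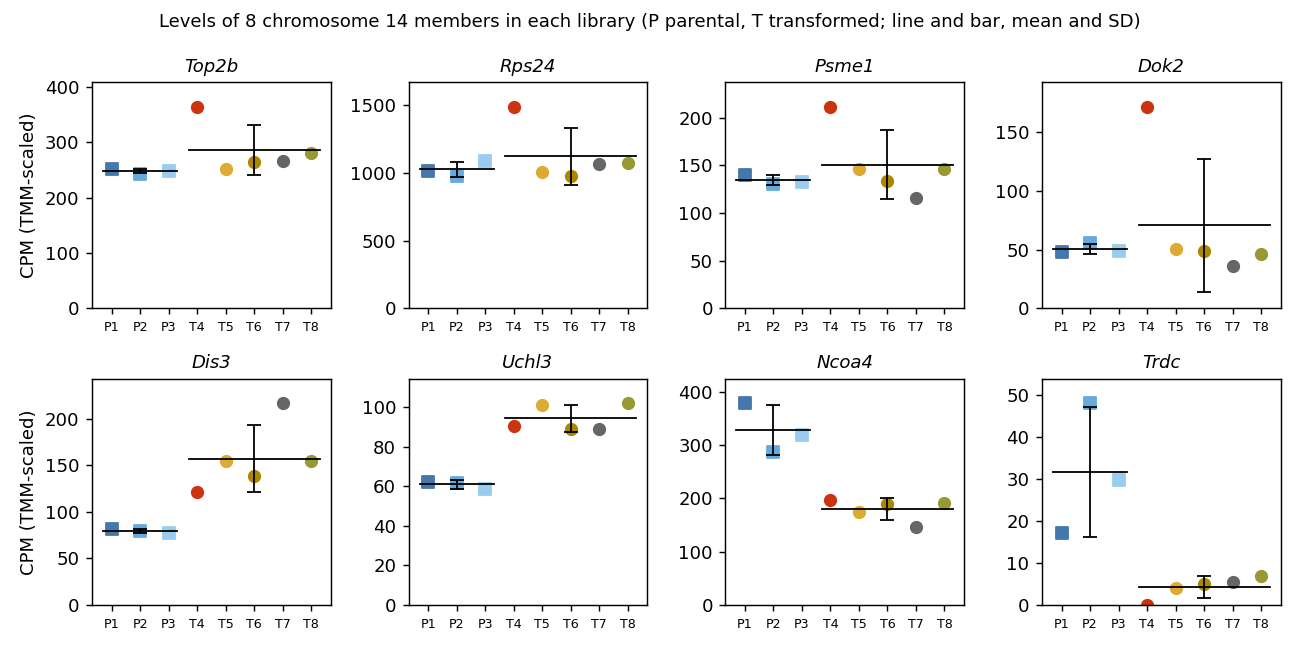
TMM-scaled CPM (vertical axes) of 8 members in each library (horizontal axes), with P for parental and T for transformed; squares and circles are libraries, horizontal lines group means and bars 1 SD (n = 3 and n = 5). Top2b, Rps24, Psme1 and Dok2 are highest in transformed 4, Dis3 and Uchl3 are higher in all 5 transformed libraries, and Ncoa4 and Trdc lie below all 3 parental values in all 5.

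Some members stood much further from the other libraries in transformed 4 than the chromosome did. Dok2, an adaptor that restrains receptor tyrosine kinase signalling in blood cells, measured 48.2, 55.6 and 48.5 CPM in parental 1 to 3, 172 CPM in transformed 4 and 51.0, 49.1, 36.3 and 46.3 CPM in transformed 5 to 8. Cma1, a mast cell chymase, measured 27.5, 56.2 and 37.8 CPM, then 78.1 CPM and 4.07, 9.40, 2.30 and 3.99 CPM. Nynrin measured 15.2, 11.6 and 14.1 CPM, then 23.2 CPM and 9.64, 10.7, 4.12 and 8.76 CPM. These were the 3 members of at least 10 CPM furthest above the other transformed libraries. Gzmb, a cytotoxic granule protease of the same cluster as Cma1, varied widely within both groups, at 5.53, 0.583 and 4.90 CPM, then 19.2 CPM and 0.0798, 10.4, 0.637 and 0.555 CPM. The mast cell marker Cpa3, on another chromosome, was also highest in transformed 4.

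Others ran against the chromosome's shift. Trdc measured 17.2, 48.1 and 29.7 CPM in parental 1 to 3, 0.0804 CPM in transformed 4 and 3.97, 4.98, 5.34 and 6.99 CPM in transformed 5 to 8. Its groups did not overlap, but the parental values spread over a wide range and it missed the threshold (log2 fold change -2.88, SE 0.81, edgeR adjusted p = 0.0893). Lgals3, galectin-3, measured 32.5, 29.0 and 29.8 CPM, then 10.6 CPM and 15.4, 21.9, 69.5 and 27.3 CPM, with transformed 7 above and transformed 4 below all others. Rap2a, a small GTPase of the distal stretch, measured 29.7, 26.6 and 29.5 CPM, then 17.4 CPM and 29.5, 31.2, 48.3 and 33.6 CPM.

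The members called lower included a receptor coactivator, a ribonuclease, a granulocyte factor and a kinase. Ncoa4, the ferritinophagy receptor and nuclear receptor coactivator, measured 379, 287 and 319 CPM in parental 1 to 3 and 197, 173, 189, 147 and 192 CPM in transformed 4 to 8 (log2 fold change -0.86, SE 0.12, edgeR adjusted p = 0.0128). Cebpe, a transcription factor of granulocyte maturation, measured 59.6, 61.3 and 61.7 CPM and then 24.2, 32.4, 38.9, 16.9 and 33.7 CPM (log2 fold change -1.05 with SE 0.22, edgeR adjusted p = 0.0415). Ear6, an eosinophil-associated ribonuclease, measured 3.42, 5.06 and 1.85 CPM and then 0.0804, 0.160, 0.221, 0.0277 and 0.0641 CPM (log2 fold change -4.89 with SE 0.48, edgeR adjusted p = 0.00457). In transformed 7 the Ear6 level was under that of 3 counts. Its mean of 1.36 CPM met the level rule only through the parental group, at group means of 3.45 CPM parental and 0.111 CPM transformed. Its place among the members thus depends on the group in which it is high. Lats2, a Hippo pathway kinase, measured 5.12, 4.84 and 5.83 CPM and then 3.60, 2.83, 3.69, 3.02 and 3.23 CPM (log2 fold change -0.67 with SE 0.14, edgeR adjusted p = 0.0391). Lats2 shares 56.5% of its 50-base sequences with another gene, so its reads may be split. No value of 1 group reached the other in any of the 4.

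The members were also read by role, against all members. In transformed 4, 82.5% of the members lay above the parental mean, beside 48.7% of all genes. Of the protein-coding members 90.2% did, with medians of 0.37 in transformed 4 and 0.05, 0.08, 0.10 and 0.10 in transformed 5 to 8. Calls are read against 4.15% of members and 0.908% of all genes called higher, and 0.755% and 2.10% called lower. Whether any role list differs from the chromosome's other members was not tested, and the values below include the shift shared along it. All 33 members of the list of ribosome, RNA processing and transcription genes lay above the parental mean in transformed 4, with a median of 0.42 and a range of 0.10 to 0.77, and their median in transformed 5 to 8 was 0.18; 5 were called higher (Dis3, Gnl3, Tdrd3, Nufip1 and Ipo5) and none lower. Hnrnpc, an RNA-binding protein, had the smallest ratio in transformed 4, at 421, 466 and 463 CPM in parental 1 to 3, 482 CPM in transformed 4 and 527, 508, 415 and 560 CPM in transformed 5 to 8. Tpt1, translationally controlled tumour protein, measured 760, 734 and 767 CPM, then 1134 CPM and 808, 831, 977 and 870 CPM. Tpt1 shares 42.0% of its 50-base sequences with another gene, so its reads may be split. Prmt5, an arginine methyltransferase acting on splicing proteins, measured 94.1, 114 and 101 CPM, then 125 CPM and 152, 133, 110 and 150 CPM. Tpt1 was thus highest in transformed 4 and Prmt5 in transformed 5, and neither passed the test (edgeR adjusted p of 0.193 and 0.101); Prmt5 passed without transformed 7 (edgeR adjusted p = 0.0334).

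All 19 members of the chromatin and DNA repair list lay above the parental mean in transformed 4, with a median of 0.36, against -0.05 in transformed 5 to 8, and 1 was called higher, Uchl3. Wapl, which releases cohesin from chromatin, measured 153, 148 and 164 CPM in parental 1 to 3, 202 CPM in transformed 4 and 151, 155, 164 and 170 CPM in transformed 5 to 8. Bap1, a deubiquitinase of histone H2A, measured 83.2, 96.2 and 97.2 CPM, then 108 CPM and 103, 88.4, 78.5 and 97.4 CPM. Both were highest in transformed 4.

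Of 19 cell cycle members, 15 lay above the parental mean in transformed 4 with a median of 0.19, the median in transformed 5 to 8 was -0.16, and 1 was called lower, Lats2. Rb1 measured 101, 90.1 and 98.9 CPM in parental 1 to 3, 102 CPM in transformed 4 and 49.9, 61.4, 81.4 and 64.5 CPM in transformed 5 to 8. Transformed 4 was thus the only transformed library that did not lie below the parental range of Rb1, and it did not pass edgeR's test (log2 fold change -0.42, SE 0.21, adjusted p = 0.283). Without transformed 4 it did, at a log2 fold change of -0.58 (edgeR adjusted p = 0.0464), and in lane 6 alone at -0.80 (edgeR adjusted p = 0.0101). Dlgap5, a spindle protein, measured 98.7, 87.4 and 96.8 CPM, then 92.9 CPM and 71.7, 72.2, 68.3 and 73.1 CPM.

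Of 17 mitochondrial members, 16 lay above the parental mean in transformed 4, with a median of 0.40 against 0.19 in transformed 5 to 8, and 2 were called higher, Dnajc15 and Pcca. Ghitm, an inner membrane protein, measured 313, 260 and 278 CPM in parental 1 to 3, 370 CPM in transformed 4 and 265, 320, 602 and 323 CPM in transformed 5 to 8, so that transformed 7 stood highest. Vdac2, an outer membrane channel, measured 190, 194 and 195 CPM, then 265 CPM and 218, 210, 230 and 221 CPM.

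Of 9 interferon-linked members, 8 lay above the parental mean in transformed 4, with a median of 0.65 there and 0.38 in transformed 5 to 8, and 2 were called higher, Epsti1 and Phf11d. Irf9, the DNA-binding subunit of the interferon-stimulated factor, measured 19.3, 14.4 and 14.4 CPM in parental 1 to 3, 21.8 CPM in transformed 4 and 15.9, 20.9, 23.0 and 16 CPM in transformed 5 to 8, with overlapping groups. Psme2, the partner of Psme1, measured 73.5, 73.0 and 67.6 CPM, then 123 CPM and 92.0, 90.5, 93.7 and 95.3 CPM. Its groups did not overlap and it narrowly missed the threshold (log2 fold change 0.48, SE 0.12, edgeR adjusted p = 0.0615), which it passed without transformed 4 (edgeR adjusted p = 0.0122) or transformed 7 (edgeR adjusted p = 0.0437). Psme2 shares 59.3% of its 50-base sequences with another gene, so its reads may be split. All 5 proteasome members lay above the parental mean in transformed 4, with a median of 0.47 against 0.13 in transformed 5 to 8, and none was called.

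Of 16 haematopoietic and immune regulators, 12 lay above the parental mean in transformed 4 with ratios from -1.98 to 1.59, the median was 0.32 against -0.06 in transformed 5 to 8, and 1 was called lower, Cebpe. Il3ra measured 48.6, 49.6 and 55.4 CPM in parental 1 to 3, 60.2 CPM in transformed 4 and 42.6, 45.6, 65.2 and 39.1 CPM in transformed 5 to 8. Its groups overlapped, with transformed 4 and 7 above the parental range and the other 3 below it (log2 fold change -0.004, SE 0.18, edgeR adjusted p = 0.994). Prkcd, a protein kinase C, measured 151, 145 and 148 CPM, then 179 CPM and 111, 105, 115 and 111 CPM, so that transformed 4 lay above and the other 4 below the parental range; without transformed 4 it passed the test, with a log2 fold change of -0.41 (edgeR adjusted p = 0.00991). Lcp1, the actin-bundling L-plastin, measured 1210, 1018 and 1059 CPM, then 1409 CPM and 1141, 1373, 2328 and 1443 CPM. Elf1, an ETS factor of the distal stretch, measured 169, 157 and 178 CPM, then 221 CPM and 189, 169, 158 and 191 CPM.

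Among 9 apoptosis genes, 7 lay above the parental mean in transformed 4, with a median of 0.25 against -0.10 in transformed 5 to 8, and none was called. Dad1, a subunit of the oligosaccharyltransferase, measured 52.0, 61.2 and 55.2 CPM in parental 1 to 3, 78.8 CPM in transformed 4 and 71.2, 67.0, 66.8 and 75.7 CPM in transformed 5 to 8, with no overlap (edgeR adjusted p = 0.0684). Bnip3l, a mitophagy receptor, measured 126, 118 and 125 CPM, then 134 CPM and 95.4, 116, 60.8 and 129 CPM. The 3 smaller lists held 1 ribonuclease (Ear6), 1 nuclear receptor (Nr1d2) and the protease genes Gzmb, Ctsg and Cma1. Nr1d2, a repressor of the circadian clock, measured 7.80, 6.49 and 7.59 CPM, then 11.9 CPM and 9.08, 10.4, 7.72 and 8.84 CPM. Zmiz1, a transcriptional coregulator on the list of BMP and TGF-beta genes with Lats2, measured 111, 142 and 162 CPM, then 168 CPM and 125, 117, 88.3 and 125 CPM.

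At the boundary itself, Tsc22d1 measured 57.3, 51.5 and 60.0 CPM in parental 1 to 3, 72.1 CPM in transformed 4 and 48.2, 48.2, 39.0 and 45.4 CPM in transformed 5 to 8. The next member, Lacc1, measured 45.4, 39.1 and 43.5 CPM, then 50.9 CPM and 48.6, 53.0, 43.8 and 49.4 CPM. Transformed 4 stood apart from the other transformed libraries in Tsc22d1 and among them in Lacc1. The boundary was placed on the difference of transformed 4 from those libraries, which favours such a contrast in the genes beside it. The contrast is therefore a description and no separate evidence for the boundary. At the level threshold, the members just inside were Rps2-ps5 at a mean of 1.01 CPM, Zcchc24 at 1.01 CPM and Gm18079 at 1.02 CPM, with transformed 4 ratios of 0.20, 0.25 and -0.07. Just outside were Gm8267 at 0.986 CPM, Farp1 at 0.983 CPM and Cbln3 at 0.957 CPM, with transformed 4 ratios of 0.72, -0.18 and 0.38.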

How the data were processed

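PolyA RNA of 3 parental and 5 transformed Ba/F3 libraries was measured. The authors deposited raw read counts, 1 row per Ensembl gene and 1 column per library and 0 columns without a sample. The submitters' processing notes name mm10, GRCm38.p5, the aligner STAR 2.5.3a and the counter featureCounts 1.5.3; strand setting, annotation release and multimapping treatment: not given in the sources used here. Positions came from GENCODE genes of GRCm38, and 105 genes without a match held 0.0212% of counts. CPM and log2 CPM (prior count 2) used TMM factors. Genes were tested with edgeR 4.0.16 (quasi-likelihood, robust, 2-sided, Benjamini-Hochberg over 17733 genes) in R 4.3.3, with DESeq2 1.42.0 and limma 3.58.1 as alternatives; the procedures were tested on simulated data. Total counts were 36122062 to 50305573, and 3 counts equal 0.0596 to 0.0831 CPM; intervals and floors cover counting error only. Sequence sharing is the percent of a gene's 50-base words, from its longest transcript, found in another gene. Named genes were 15 fixed genes, the 8 highest and 8 lowest changes among called genes of average log2 CPM of at least 3, the 3 members furthest above and below in transformed 4, the 2 most abundant of each role list, and those next to the threshold and the boundary. The members, lists and rules were chosen with earlier results of these data known. Alternatives covered scaling, filters, gene class, lanes and left-out libraries.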

Additional observations from a re-analysis of the deposited data

Results flagged for a closer look

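Of 16 medians over the 5 transformed libraries (the chromosome, both sides of the boundary and the bins), 4 had 1 library far from the others, and in each it was transformed 4. Its chromosome 14 median was 0.30, with 0.11 the next highest, and its median up to Tsc22d1 was 0.31, with 0.07 the next. In the 10 Mb bin from 20 Mb it was 0.30 beside 0.05, and in that from 50 Mb 0.32 beside -0.04. The chromosome was chosen on these same values and the boundary was placed on the difference of transformed 4 from the others, so these gaps describe that choice and are no test of it; the rate of about 1 in 20 groups that chance alone sets apart does not apply to them.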

How the results depend on the processing

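The transformed 4 median of chromosome 14 stayed above 0 in all 13 alternatives, between 0.19 and 0.37; the other medians lay between -0.0048 and 0.16. They moved beyond the parental spread as follows: RLE factors, transformed 7 0.093; upper-quartile factors, transformed 5 0.089 and transformed 7 0.161; library totals, transformed 8 0.061; no CPM minimum, transformed 4 0.195 and 0 in transformed 5, 6, 7 and 8; protein-coding members, transformed 4 0.366 and transformed 7 0.097; mean over members, transformed 4 0.257 and transformed 8 0.056; and under 10% shared sequence, transformed 4 0.349, transformed 5 -0.0048 (a changed sign) and transformed 8 0.054. The step between the sides, 0.26, was 0.280 to 0.305 with 1 library of transformed 5 to 8 left out. Without transformed 6 it lay between Akap11 and Vwa8. The 22 higher and 4 lower calls became 78 and 9 with DESeq2, where 4.79% and 5.64% of all genes were called. They became 1 and 2 with lane as a covariate (0.0846% and 0.445% of all genes) and 71 and 47 in lane 6 (9.6% and 10.8%). At 2-fold or more they were 2 and 2 (0.254% and 0.722%). In lane 7 edgeR called 0 and 0, with 22 and 3 at an unadjusted p under 0.05. Leaving out 1 library gave 0 to 62 higher and 1 to 37 lower, beside 0.0166% to 6.25% and 0.116% to 9.26% of all genes. Without transformed 4 and 7 together the member calls were 108 and 72, beside 12.8% and 16.1% of all genes. That alternative was chosen after seeing the data, like those on shared sequence and on the step's left-out libraries. Il3ra, at a log2 fold change of -0.004, changed sign with DESeq2 (0.00123), RLE factors (0.00122), lane 7 (0.221), and without parental 3 (0.060) or transformed 5 (0.056), 6 (0.040) or 8 (0.080); its left-out values ran from -0.125 to 0.080. Irf9 did in lane 6 (-0.073), and Bap1 in lane 7 (-0.055) and without parental 1, with left-out values from -0.0062 to 0.106. Over 23 named genes, 78 values lost and 19 gained a call: lane as a covariate ended 9, leaving out parental 1, 2 or 3 ended 11, 10 and 11, and leaving out transformed 5, 6 or 8 ended 7, 9 and 9. The causes were not tested. No paired analysis was possible because the groups share no replicate numbers. Low counts limit members near 1 CPM most.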
